A study of Mus musculus with 464 samples.

Results

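Megalin and cubilin form the receptor complex through which absorptive epithelia take up proteins, vitamins and lipid carriers. Its 4 genes were Lrp2, Cubn, Amn and Dab2, taken by name from the 21973 genes of a table of expression in single mouse cells, and all 4 were in the table. The cells were R1 mouse embryonic stem cells, grown with 15% Knockout Serum Replacement and 1000 U/ml of LIF, formed into embryoid bodies by the hanging drop method for 48 hours and then held in an ultra-low attachment plate for 4 days in differentiation medium with 0.5 mM retinoic acid (RA, the dose as the labels state it), changed every day. A Fluidigm C1 instrument captured the single cells, whose RNA was copied with SMART-Seq V4 chemistry, which reads full-length transcripts without molecular identifiers, and made into Nextera XT libraries. All samples, each labelled as 1 cell, carried this 1 treatment and no separate culture was named, so there was no untreated group and no replicate. No test between conditions was possible and no p-value is given.

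Lrp2 encodes megalin, a very large endocytic receptor of the LDL receptor family. Cubn encodes cubilin, a receptor with no membrane-spanning segment of its own, which depends on the small transmembrane protein amnionless, encoded by Amn, to reach and stay at the cell surface. Dab2 encodes an adaptor that binds the cytoplasmic tails of such receptors and links them to the clathrin coat. The complex is best known from the visceral endoderm of the yolk sac, where it takes up maternal nutrients before the placenta works, and from the kidney proximal tubule, and megalin is also found on the apical side of the early neuroepithelium.

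The start regions of the genes are shown because the 4 genes, described below as high in the same class of cells, differ in the makeup of their starts. Each is the 250 bases before a RefSeq transcript start (GRCm38.p6, the same assembly as mm10), written 5′ to 3′ on the strand of the gene, with CpG dinucleotides in capitals. They are Lrp2 at chr2:69586030-69586279 (minus strand), Cubn at chr2:13491877-13492126 (minus strand), and the distal and proximal starts of Dab2 at chr15:6299539-6299788 and chr15:6386498-6386747 (plus strand).
Lrp2: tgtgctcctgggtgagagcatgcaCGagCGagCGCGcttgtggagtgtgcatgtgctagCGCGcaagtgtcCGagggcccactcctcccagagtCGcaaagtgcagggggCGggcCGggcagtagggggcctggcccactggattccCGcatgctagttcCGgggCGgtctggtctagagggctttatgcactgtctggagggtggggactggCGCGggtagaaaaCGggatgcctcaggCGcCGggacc
Cubn: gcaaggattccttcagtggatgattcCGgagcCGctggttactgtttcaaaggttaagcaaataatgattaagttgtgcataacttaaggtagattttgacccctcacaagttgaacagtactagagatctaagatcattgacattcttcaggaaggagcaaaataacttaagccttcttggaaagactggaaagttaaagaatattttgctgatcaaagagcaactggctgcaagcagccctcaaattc
Dab2, distal start: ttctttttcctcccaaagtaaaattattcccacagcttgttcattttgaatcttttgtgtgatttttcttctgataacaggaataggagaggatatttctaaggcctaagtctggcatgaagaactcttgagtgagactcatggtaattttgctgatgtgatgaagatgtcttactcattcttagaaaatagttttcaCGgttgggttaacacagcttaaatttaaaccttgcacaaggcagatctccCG
Dab2, proximal start: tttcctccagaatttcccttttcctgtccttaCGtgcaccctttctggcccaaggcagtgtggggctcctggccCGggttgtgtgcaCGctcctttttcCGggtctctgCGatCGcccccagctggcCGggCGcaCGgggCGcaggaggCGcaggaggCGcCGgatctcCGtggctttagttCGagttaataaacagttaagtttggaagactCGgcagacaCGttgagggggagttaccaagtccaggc

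The Lrp2 region held 18 CpG dinucleotides at a GC content of 66.4%, and 21.7% of the 32851 RefSeq mouse promoters in the table had as many or more in the same length. The Cubn region held 2 CpG at 39.6% GC, as few as the distal Dab2 start, and 81.2% of promoters had as many or more. The proximal Dab2 start held 17 CpG, and the Amn region (chr12:111270846-111271095, plus strand) held 11 at 61.2% GC, against a median of 6 over all promoters. Both CpG-rich and CpG-poor starts were thus found among the 4 genes. Of 5 motif groups searched as exact letters on both strands, 2 gave a match. The words searched for GATA factors were AGATAA or TGATAA or AGATAG or TGATAG, and 26.5% of all promoters held at least 1 of them. The word TGATAA stood once, on the strand of the gene, in the upstream part of the distal Dab2 region. The HNF1 word GTTAAT stood 65 to 60 bases before the proximal Dab2 start and was held by 6.43% of promoters. The FOXA words TGTTTAC and TGTTTGC, the SOX word AACAAT and the RAR word AGGTCA, held by 7.29%, 9.42% and 14% of promoters, were not among the letters of the 5 regions. A match describes letters in this window and not a bound site.

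The values were taken to be in TPM, a unit that was inferred and is not stated with them. TPM is a share of all transcripts of a cell that corrects for transcript length, so levels can be compared between genes. Column sums were 54.2% to 95.1% of the TPM total, so the listed genes did not make up the whole of it in any column. Columns were left out where fewer than 2000 genes were above 0 or where mitochondrial genes made up over 20% of the sum, which removed 6. Of the rest, 55 columns in 1 of the 2 column sets each had a near copy in the other, with a correlation above 0.93. Each such pair was averaged and counted as 1 cell. Read depth is unknown, so the number of genes above 0 is given as its stand-in. A gene was called detected at 1 TPM or more, and shares of cells have exact Clopper-Pearson 95% intervals, which cover counting error only.

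Cells were divided by marker genes that include none of the 4. Endoderm-marker cells had at least 5 of 10 endoderm markers (among them Gata4, Gata6 and Sox17) and fewer than 5 of the markers on each neural list. Neural-marker cells had at least 5 of 10 neural progenitor markers (such as Pax6 and Sox1) or 5 of 8 neuron markers (such as Tubb3 and Dcx), and fewer than 5 endoderm markers. Double-marker cells met both rules. This gave 55 endoderm-marker, 53 double-marker and 290 neural-marker cells, and 5 cells that met neither rule, which are all the cells kept. The median number of markers detected in the endoderm-marker cells was 9 endoderm, 1 neural progenitor and 1 neuron marker, and in the neural-marker cells it was 2, 8 and 5. In the double-marker cells it was 8, 7 and 5. Few cells lay at the limit of the endoderm rule, with 17 cells at 4 endoderm markers and 3 at 5. Of the cells with at least 5 endoderm markers, 4 had 4 or 5 on their best neural list. More lay at the limit of the neuron list, with 35 of all kept cells at 4 neuron markers and 43 at 5. A limit of 4 markers on every list gave 71 double-marker cells, and a limit of 6 gave 49. The median number of genes above 0 was 6265 in endoderm-marker, 8026 in double-marker and 6797 in neural-marker cells. Endoderm-marker cells detected a median of 7 of 8 parietal and 5 of 13 visceral endoderm markers held out of the division. In neural-marker cells these medians were 2 and 1. Both kinds were thus found in the endoderm-marker cells, so that no single endoderm layer can be named. The parietal list holds collagen IV and laminin genes, as the dividing list does (Col4a1 and Lama1), so its count is not fully separate from the division. Of 5 pluripotency markers, set beside the stem cell label, endoderm-marker cells detected a median of 2, with a median sum of 392.8 TPM against 0 in neural-marker cells. Dppa5a was the one most often detected, and Nanog and Esrrb were at 0 in every endoderm-marker cell.

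Lrp2, the megalin gene, was detected in 44 of 55 endoderm-marker cells (80%, interval 67 to 89.6). Its level there ran from 0 through a median of 17 TPM to 70.66 TPM, with a mean of 18.6 ± 16.1 TPM (SD over cells). In the 290 neural-marker cells the median was 0, the highest cell was at 31.54 TPM, and 13 cells detected it (4.48%, 2.41 to 7.54). The ranges overlap at 0 and in a few neural-marker cells, but the middle of the endoderm-marker cells lies above nearly all neural-marker cells. Within the latter, Lrp2 was detected in 9 cells with fewer than 5 neuron markers (6.25% of such cells, 2.9 to 11.5) and in 4 cells with more (2.74%, 0.751 to 6.87), shares whose intervals overlap. Megalin RNA was therefore present in most cells of the endoderm class and in a small minority of the neural class.

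Cubn, the cubilin gene, was detected in 35 of 55 endoderm-marker cells (63.6%, 49.6 to 76.2), with a lowest value of 0, a median of 4.26 and a highest of 54.77 TPM and a mean of 8.12 ± 10.7 TPM. Of the 290 neural-marker cells, 1 detected it, at 4.51 TPM (0.345%, 0.00873 to 1.91). That cell also detected Lrp2 and Dab2 and carried 4 endoderm markers, 1 short of the rule for double-marker cells. When the rule was set at 4 markers, the share of neural-marker cells with Cubn was 0. Cubilin RNA was thus at 1 TPM or more in most endoderm-marker cells and in almost no neural-marker cell. The share of endoderm-marker cells was 45.5% at 5 TPM, and 16.4% when a gene had to be among the 4000 highest of a cell, where Cubn was no longer called higher by the rule of size given below.

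Amn, whose protein anchors cubilin, was the least often detected in the endoderm class. It was detected in 15 of 55 endoderm-marker cells (27.3%, 16.1 to 41), with a median of 0, a highest value of 58.57 TPM and a mean of 6.86 ± 14.5 TPM. The cells that did detect it had a median of 21.3 TPM, close to the 22.7 TPM of cells that detected Lrp2 and above the 9.87 TPM of cells that detected Cubn. In neural-marker cells Amn was detected in 4 of 290 (1.38%, 0.377 to 3.49), at 1.515, 8.69, 21.03 and 32.36 TPM, and all 4 had at least 5 neuron markers. Amn was therefore below 1 TPM in most cells of every class, and at levels like those of Lrp2 in a minority of the endoderm class.

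Dab2, the clathrin adaptor gene, had the highest level of the 4. All 55 endoderm-marker cells detected it (93.5 to 100), from 32.5 through a median of 361.7 to 962.6 TPM, with a mean of 343.5 ± 211.1 TPM. Of the 290 neural-marker cells 53 detected it (18.3%, 14 to 23.2), with a median of 0 and a highest value of 103.1 TPM. The share was 15.3% (22 cells) in neural-marker cells with fewer than 5 neuron markers and 21.2% (31 cells) in the others. The ranges of the classes overlapped between 32.5 and 103.1 TPM. In mean TPM the order within endoderm-marker cells was Dab2, Lrp2, Cubn and Amn, and the neighbours Lrp2 and Cubn, and Cubn and Amn, differed by less than the SD over cells of the higher of each pair.

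**Figure D1:**
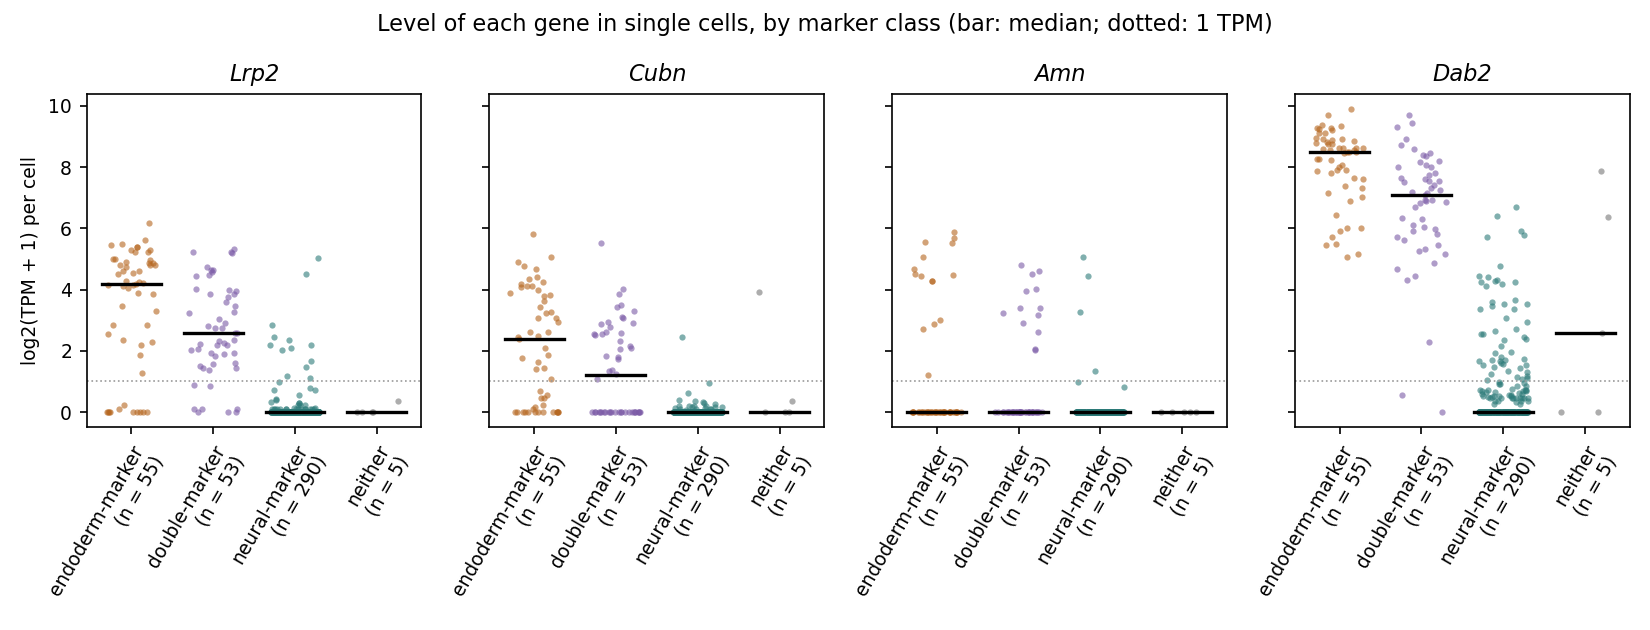
Level of Lrp2, Cubn, Amn and Dab2 as log2(TPM + 1) in each cell, by marker class, with 1 point per cell, the median as a bar and 1 TPM as a dotted line. All 55 endoderm-marker cells lie above the line for Dab2, whereas for Amn the median is 0 in every class.

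All 4 genes were higher in endoderm-marker than in neural-marker cells by a rule of size that asks for a mean TPM at least 2-fold apart (0.01 TPM added to both means), no overlap between the intervals of the shares, and detection in at least 10 cells. By the same rule 1497 of 13147 genes were higher (11.4%) and 2500 were lower (19%), with the 28 genes that define the classes left out. The mean of Lrp2 was 18.6 against 0.325 TPM, a fold of 55.7, and that of Cubn was 8.12 against 0.0301 TPM, a fold of 202.7. Amn had 6.86 against 0.225 TPM, a fold of 29.2, and Dab2 had 343.5 against 2.45 TPM, a fold of 139.6. A fold as high or higher was found for 0.768% of the 13147 genes for Cubn, 1.02% for Dab2, 1.89% for Lrp2 and 2.78% for Amn, and the median log2 fold of all genes was -0.34. The lowest fold was that of the gene least often detected in endoderm-marker cells.

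The 2 column sets, which the column names give without saying what they stand for, were also read apart, with 32 and 30 endoderm-marker cells. Cells with a near copy, 7 of the endoderm-marker and 42 of the neural-marker cells, have a column in each set. The 2 readings therefore share cells and are not independent of each other. The detected share of Lrp2 in them was 78.1% in set 1 and 83.3% in set 2, and the log2 fold over neural-marker cells was 5.25 and 5.89. For Cubn the shares were 59.4% and 66.7%, and the log2 folds 7.13 and 8.28. For Amn the shares were 28.1% and 23.3%, and the log2 folds 6.33 and 4.58, the widest gap of the 4. Dab2 was detected in every endoderm-marker cell of both sets, with log2 folds of 7.22 and 6.84. All 8 folds passed the rule of size. Mean levels in set 2 were higher for all 4 genes, in ratio by the most for Amn (8.83 against 4.96 TPM) and the least for Dab2 (335.9 against 319.8 TPM).

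The near-copy columns were taken as repeat measurements of 1 cell, which the labels do not state, and at which step they were repeated is unknown. Of the 55 pairs, Lrp2 was detected in both columns of 12, in 1 column of 1 pair (at 1.28 TPM) and in neither of 42. Cubn was detected in both columns of 9 pairs and in neither of 46, and never in 1 alone. Where both columns detected the gene, the median absolute difference on the log2(TPM + 1) scale was 0.21 for Lrp2, 0.16 for Cubn and 0.20 for Dab2. These differences are small beside the range of the 3 genes over endoderm-marker cells. Amn was detected in both columns of 3 pairs and in 1 of 2 pairs, with a median difference of 0.59, so its repeatability rests on few pairs. Dab2 was detected in both columns of 19 pairs and in 1 alone of 11, the latter at up to 8.68 TPM, and 1 pair that detected it in both differed by 3.43. Detection of Dab2 at low levels was therefore often not repeated in the other column. Of the 55 pairs, 7 were endoderm-marker, 6 double-marker and 42 neural-marker cells.

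**Figure D2:**
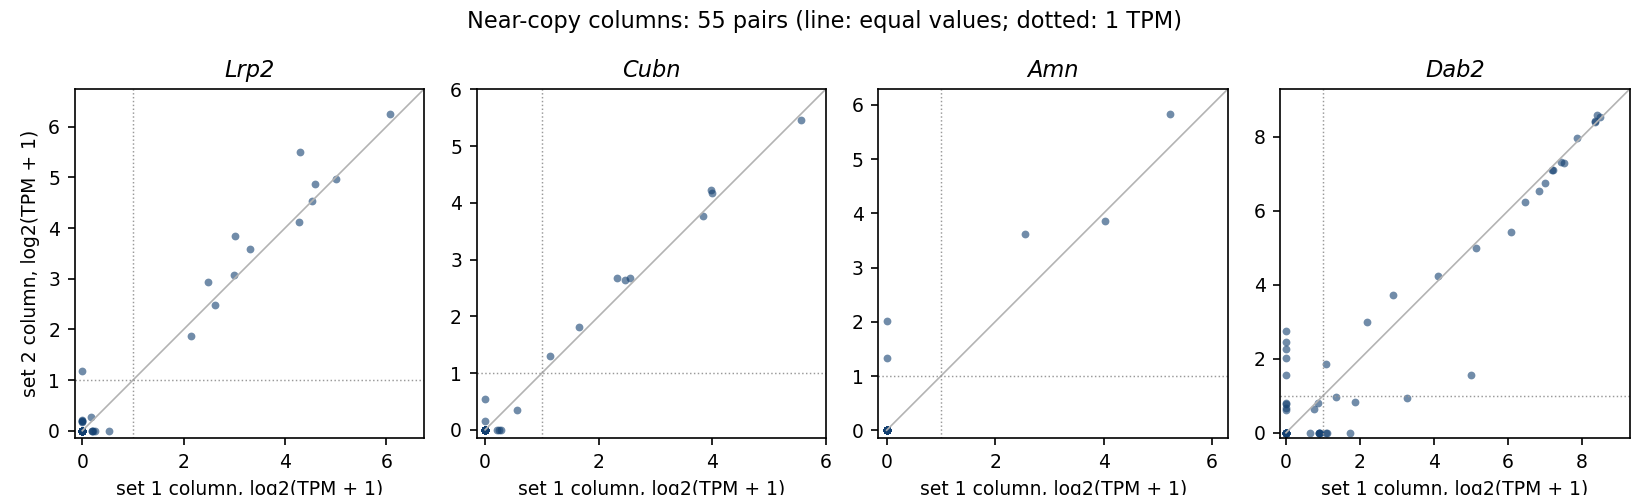
Level of each gene in the set 1 column (x axis) against the set 2 column (y axis) of the 55 near-copy pairs, as log2(TPM + 1), with the line of equal values and 1 TPM dotted. Points of Lrp2 and Cubn lie on or near the line, while for Dab2 11 pairs pass 1 TPM in 1 column alone.

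The 4 genes were then read together in the same cells. All 4 were detected in 10 of 55 endoderm-marker cells, 3 in 23 cells, 2 in 18 and 1 in 4, so 60% of the cells had 3 or 4. The most frequent combination was Lrp2 with Cubn and Dab2 but without Amn, in 19 cells, and Lrp2 with Dab2 alone followed in 11 cells. Of the 290 neural-marker cells 77.9% detected none, 58 detected 1, 5 detected 2, 1 detected 3 and 0 detected all 4. Dab2 alone made up 47 of these 58 cells. The full set was thus found in a minority of endoderm-marker cells and the partial set with Dab2 in the rest.

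In endoderm-marker cells, 10 cells detected both Cubn and its anchor gene Amn, 25 Cubn alone, 5 Amn alone and 15 neither. Amn was thus found in 28.6% of cells with Cubn, near its share of 27.3% in all 55 cells. Cubn was found in 66.7% of cells with Amn, near its share of 63.6% in all 55 cells. Lrp2 and Cubn were both detected in 29 cells, which were 65.9% of the cells with Lrp2 and 82.9% of those with Cubn. In all 55 cells the shares were 63.6% for Cubn and 80% for Lrp2. Of the 15 cells with Amn, 14 had Lrp2. Across the 55 cells, the rank correlation (Spearman's rho, given as a description over cells with no replicate culture) was -0.01 for Lrp2 and Cubn, 0.00 for Cubn and Amn, and 0.27 for Cubn and Dab2. In the 53 double-marker cells it was 0.24, 0.00 and 0.60. Sharing a class thus did not come with a high rank correlation of the receptor genes within the endoderm-marker cells. A value of 0 in 1 cell does not show that the RNA was absent.

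**Figure D3:**
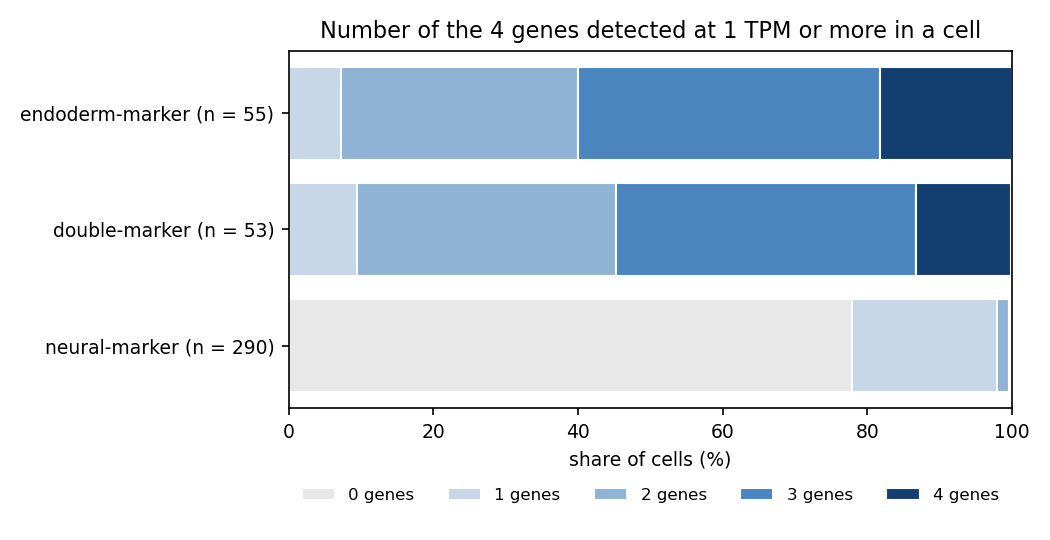
Share of cells (x axis, percent) that detect 0, 1, 2, 3 or 4 of the genes at 1 TPM or more, for each marker class. Of the endoderm-marker cells 60% detect 3 or 4 of the genes, and 77.9% of the 290 neural-marker cells detect none.

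Within the endoderm-marker cells, Dab2 had the highest rank correlation with the number of visceral markers detected. Its rho was 0.37 over 55 cells, against 0.23 for Cubn, 0.16 for Amn and -0.15 for Lrp2. Cells with at least 5 visceral markers (28 cells) had a mean Dab2 level of 431.1 TPM, and the 27 cells with fewer had 252.7 TPM. Cubn was detected in 71.4% (51.3 to 86.8) and 55.6% (35.3 to 74.5) of these cells, intervals that overlap, and Lrp2 in 82.1% and 77.8%. The rho with the number of parietal markers was -0.26 for Cubn, 0.19 for Lrp2, -0.07 for Amn and 0.02 for Dab2. The number of genes above 0, with medians of 6313 and 6005 in the cells with more and fewer visceral markers, had a rho of 0.03 to 0.19 with the 4 genes. Its part in the differences was not tested.

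Markers of other cell types were also read in the endoderm-marker cells. Of 8 trophoblast markers, 1 (Plac1) was detected in at least 10% of them, and Elf5, Hand1 and Tfap2c were at 0. The summed trophoblast level ran from 0 to 914.9 TPM, against 0 to 82.6 TPM in neural-marker cells. Of 8 blood and endothelium markers, 2 reached 10% of the endoderm-marker cells (Cdh5 and Csf1r), with sums from 0 to 109.2 TPM against 0 to 26.7 TPM, and Tal1, Ptprc and Hbb-y were at 0. Of 8 mesenchyme markers, 1 did (Twist1), with sums from 0 to 49.8 TPM against 0 to 50.7 TPM, and 5 were at 0. The part of these RNAs in the levels of Lrp2, Cubn, Amn and Dab2 was not tested.

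The double-marker cells carried all 4 genes as well. Lrp2 was detected in 45 of 53 (84.9%, 72.4 to 93.3), from 0 through a median of 4.99 to 39.15 TPM. Cubn was detected in 28 (52.8%, 38.6 to 66.7), with a median of 1.34 and a highest value of 44.56 TPM. Amn was detected in 13 (24.5%, 13.8 to 38.3), with a median of 0 and a highest value of 26.81 TPM. Dab2 was detected in 51 (96.2%, 87 to 99.5), from 0 through a median of 134.1 to 825.6 TPM. At 1 TPM these shares had intervals that overlap those of endoderm-marker cells for each gene. Against neural-marker cells all 4 passed the rule of size, with folds of 28.3 for Lrp2, 91.6 for Cubn, 12.5 for Amn and 73.8 for Dab2, where 1285 of 13191 genes did (9.74%). Mean levels were 0.509 of those in endoderm-marker cells for Lrp2, 0.452 for Cubn, 0.427 for Amn and 0.529 for Dab2. Against endoderm-marker cells 0 of the 4 passed the rule in either direction, where 11 of 11416 genes were higher in endoderm-marker cells (0.0964%) and 1299 were lower (11.4%). The double-marker cells had more genes above 0 (median 8026) than either single class. Without the 5% of cells with the most genes, 41 of them remained, with Lrp2 in 82.9% and Cubn in 41.5%. When a gene had to be among the 4000 highest of a cell, Lrp2 was detected in 11.3% of double-marker cells (4.27 to 23). In endoderm-marker cells it was then 45.5% (32 to 59.4), an interval that does not overlap. For Cubn the shares were 1.89% and 16.4%, with intervals that overlap. Capture sites that held more than 1 cell were not called, and their part in the double-marker class was not tested.

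In neural-marker cells the genes were read against the few endoderm markers such cells had. Dab2 was detected in 3 of 20 cells with 0 endoderm markers (15%), 12 cells with 1 (11.2% of such cells), 19 with 2 (16.1%), 12 of 30 with 3 (40%) and 7 of 15 with 4 (46.7%). The share was thus higher in cells with 3 or 4 endoderm markers, and at 11.2% to 16.1% in those with fewer. The intervals at 3 (22.7 to 59.4) and 4 markers (21.3 to 73.4) lie above that at 1 (5.93 to 18.8). They overlap those at 0 (3.21 to 37.9) and 2 (9.98 to 24). For Lrp2 the shares were 0%, 2.8%, 4.24%, 6.67% and 20%, the last from 3 of 15 cells.

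**Figure D4:**
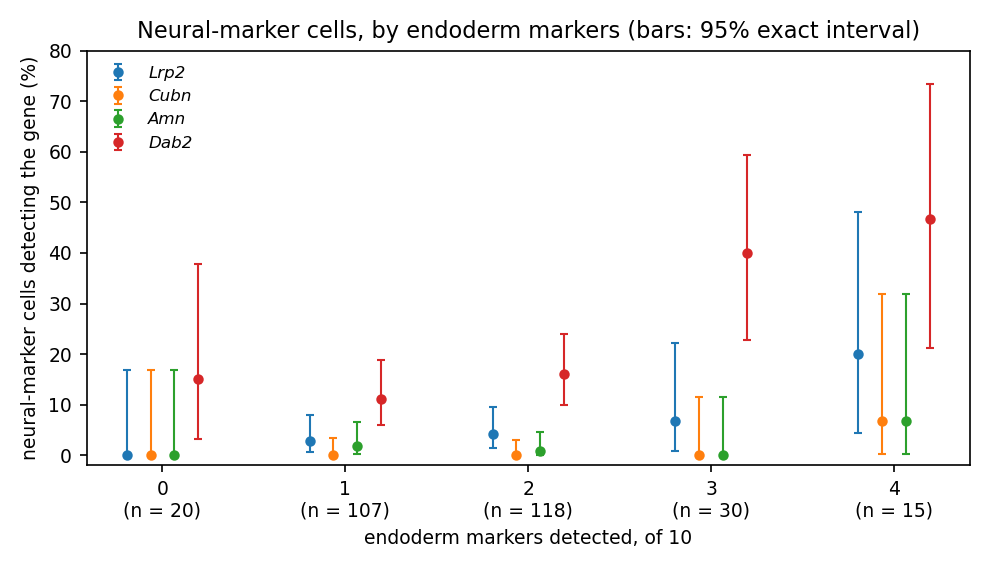
Share of neural-marker cells that detect each gene (y axis, percent, with exact 95% intervals) by the number of endoderm markers in the cell (x axis). The Dab2 share is 11.2% to 16.1% at 0 to 2 markers and 40% and 46.7% at 3 and 4, and the intervals at 4 markers rest on 15 cells.

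Since megalin is also known in the ventral neural tube, the 13 neural-marker cells with Lrp2 were set beside those without it for genes of the floor plate, its ventral midline. Ntn1, a guidance cue made there, was detected in 8 of 13 (61.5%) and in 31.4% of the others. Foxa2, a floor plate transcription factor that is also an endoderm marker, was detected in 3 of 13 and 3.61% of the others, and Shh, the ventral signal, in 1 of 13 and 0.722%. Nkx6-1, a broader ventral gene, was detected in 3 of 13 (23.1%) and 30.7%. With 13 cells these shares are imprecise, and most neural-marker cells with Ntn1 had no Lrp2. The 1 cell with Cubn detected Shh, Foxa1, Ntn1, Spon1, Slit1 and Foxa2.

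The genes around the receptor complex were read from 7 lists with 82 genes, of which 74 could be counted. Of the 74, 24 were higher in endoderm-marker cells by the rule of size (32.4%) and 7 were lower (9.46%), against 11.4% and 19% of all genes, with a median log2 fold of 0.83 against -0.34 over all genes. The lists were chosen with earlier results of these data known. Of the 24, 9 are ligand genes, and 4 of the listed ligand genes are also visceral endoderm markers. The total is therefore not separate from the identity of the cells. Because the rule asks for detected shares that differ, a gene found in nearly all cells of both classes cannot pass it at any fold.

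Of 10 counted relatives of megalin in the LDL receptor family, 1 was higher and 3 were lower, with a median log2 fold of -0.54. With 10 genes, these counts do not stand clear of the shares over all genes. Lrp10 was higher, at 17.8 against 4.43 TPM. Lrp1, another giant receptor of the family, was detected in 0 of 55 endoderm-marker cells (0 to 6.49%) and 86 of 290 neural-marker cells, at means of 0.0209 and 3.77 TPM, and Lrp12 had a log2 fold of -3.47. Lrp8, a reelin receptor, had a log2 fold of -2.04. Lrp8 was not called in 5 of the 17 alternative settings, among them each column set alone, and Lrp1 in 2. Of the 3 chaperones that help such receptors fold, 2 were higher. Lrpap1, which encodes the receptor-associated protein that keeps ligands off megalin during its synthesis, was at a mean of 1871.4 against 52.7 TPM (fold 35.5). It was detected in 55 of 55 endoderm-marker and 90.3% of neural-marker cells, and it missed the rule in 6 of the 17 alternative settings because the intervals of its shares then touched. Mesd, a chaperone of the same receptors, had a fold of 2.96 and was not called in 1 setting.

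Of 9 counted adaptors and scaffolds, 2 were higher and 2 were lower, with a median log2 fold of -0.72, counts that likewise do not stand clear of the shares over all genes. Myo6, a motor that Dab2 recruits to coated vesicles, had a fold of 5.75. Dab1, the neuronal relative of Dab2 that acts in reelin signalling, was at 4.67 against 14.7 TPM, and detected in 21.8% and 42.1% of cells, and it was not called in 9 of the 17 settings, among them each column set alone. Dab2 was thus higher in the endoderm class, while the log2 fold of Dab1 was below 0 in each of the settings tried. Numbl had a log2 fold of -3.42 and was not called in 2 settings.

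Of 15 genes of the clathrin coat, which Dab2 joins to the receptors, and of vesicle scission, 1 was higher (Ap2a2, a subunit of the AP2 adaptor, fold 2.83, not called in 2 of the 17 settings) and 1 lower (Dnm1, a neuronal dynamin, log2 fold -5.77), with a median log2 fold of 0.08. Of 14 endosome and recycling genes 3 were higher and 0 lower, at a median of 0.70. The counts of the clathrin list and of this list do not stand clear of the shares over all genes, 11.4% higher and 19% lower. Clcn5, a chloride-proton exchanger of endosomes whose loss impairs megalin uptake in the kidney, was at 18.5 against 2.48 TPM (fold 7.43), Ehd1 had a fold of 4.31 and Atp6v0a1, a subunit of the proton pump, 2.92.

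Of 10 lysosomal genes, whose products break down what the receptors deliver, 6 were higher and 0 lower, at a median log2 fold of 3.45. Lgmn, a protease, was at 763.7 against 24.5 TPM (fold 31.2), Ctsz had a fold of 20.5, Ctsd 13.3 and Hexa 8.93. Ctsb and Ctsl, named after their values were seen, had folds of 20.5 and 13.3 and were not called. Both were detected in all 55 endoderm-marker cells, and their shares in neural-marker cells were too high for the intervals to separate.

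Of 13 counted genes for proteins that megalin or cubilin bind, 9 were higher and 1 lower, at a median log2 fold of 5.42. Rbp4, the retinol carrier, was at 2736.2 against 7.26 TPM (fold 376.2), and Clu, the lipoprotein clusterin, at 3807.5 against 11.8 TPM (fold 321.2). Gc, the vitamin D carrier, was at 62.5 against 0.0424 TPM and Ttr, the thyroid hormone carrier, at 79.5 against 0.0909 TPM. Lpl was lower, with a log2 fold of -1.94, and was not called in 3 settings. Ligand genes named by their absence were Alb and Gif, listed at 0 in every cell of these classes. Of the ligand genes, 4 are also on the visceral endoderm list, so that their count is not separate from the identity of the cells.

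**Figure D5:**
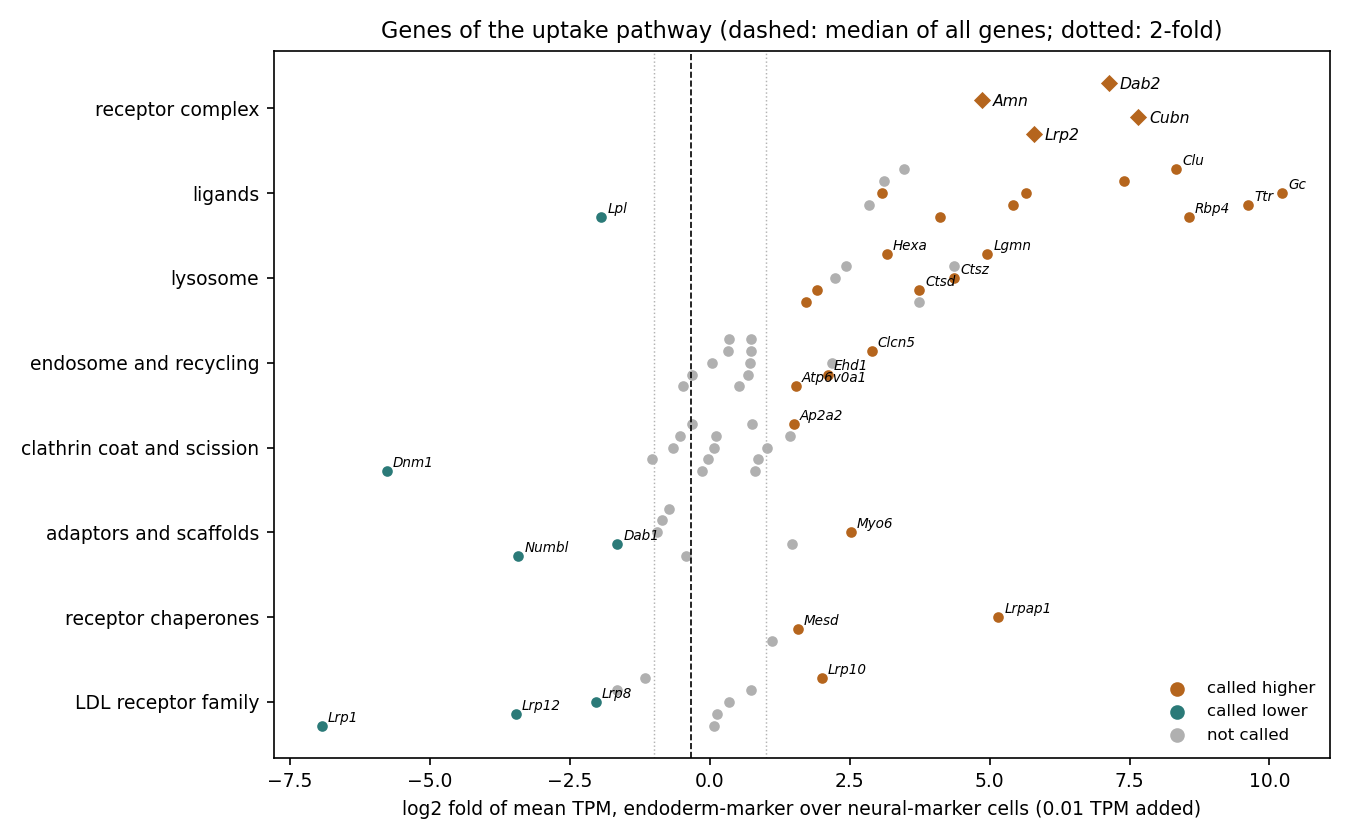
Log2 fold of mean TPM, endoderm-marker over neural-marker cells (x axis), for the 4 receptor complex genes (diamonds) and the counted genes of 7 lists (points), coloured by the rule of size, with up to 4 names per list and direction and 1 counted gene not drawn. The 4 diamonds lie between 4.87 and 7.66, to the right of all counted genes of the clathrin coat and of the LDL receptor family.

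Genes with the most similar pattern were ranked by Spearman's rho of TPM across all kept cells, among 11135 genes detected in at least 10% of cells. Nearest to Lrp2 were Sox17 and Gata4 (0.72 each), Pdgfra and 2200002D01Rik (0.71 each) and Epas1 (0.70). Nearest to Cubn were Acp5, Pla2g12b and Epcam (0.63 each), 2200002D01Rik and Dab2 (0.62 each). Dab2 was nearest to Epas1 (0.77), 2200002D01Rik, Krt8 and Col4a1 (0.75 each) and Col4a2 (0.74). Sox17, Gata4, Pdgfra and Col4a1 are among the genes that define the classes. For Amn the highest values were lower, with Slc39a4 at 0.44, Prss12 and A4galt at 0.43, and Cd38 and Ap1m2 at 0.42. Dab2 was thus 1 of the 5 genes nearest to Cubn. Amn, detected in 7.94% of all kept cells, was under the 10% limit and could not be ranked as a neighbour of the others. Lrp2 and Dab2 had a rho of 0.64, and Lrp2 and Cubn 0.53, and in both cases more than 5 other genes were nearer.

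Within the 55 endoderm-marker cells alone, where the difference between classes plays no part, other genes came first among 10255 compared. They were Rpl41 (0.62), F2 (0.55), Pkd1 (0.54), Scube2 (0.53) and Rps6 (0.52) for Lrp2, and Epcam and Ttc32 (0.55 each), Nrip1 (0.51), Ocln (0.49) and Prkcsh (0.47) for Cubn. For Amn they were Prkdc (0.51), Fbxo42 (0.48), Rnf135 and Faap100 (0.46 each) and Dtwd1 (0.45). For Dab2 they were Sec11c (0.52), B4galnt1 (0.47), Sh2d3c (0.46), and Nudt10 and Raet1d (0.45 each). Epcam, an epithelial adhesion gene, was among the 5 genes nearest to Cubn in both rankings, and no other gene was so for any of the 4. The 55 cells are also part of the first ranking, so the rankings are not separate. The values are the highest of 10255 over 55 cells, and how high chance alone would reach was not tested. All cells are of 1 treatment with no replicate culture, and these values describe them alone.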

How the data were processed

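STAR, RSEM and mm10 are named in the submitters' processing notes, with no version. Which annotation was used is not given in the sources used here. No unit is stated in the deposited table, whose values were taken as the TPM that the authors' RSEM step reports, and column sums were 54.2% to 95.1% of the TPM total. All its columns belong to the 1 group, but none could be tied to a single labelled sample. Nextera XT marks no strand, so reads of overlapping genes cannot be told apart.

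From these deposited TPM values, cells were filtered, near-copy columns (log2(TPM + 1) correlation above 0.93 across genes detected in at least 10 columns) averaged, cells classed by markers, and shares, means and folds computed with Python 3.11.15, numpy 2.4.6 and scipy 1.17.1. Doublets were not called. The rule of size was tested on simulated data. Promoters came from RefSeq tables of GRCm38.p6. Members and gene lists were chosen with earlier results of these data known. Beyond the 4 genes, the text names up to 4 genes per list and direction by fold and the 5 nearest genes by rho; 1 gene that this rule names is not reported here. In all, 17 alternative settings were tried.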

Additional observations from a re-analysis of the deposited data

How the results depend on the processing

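Over 17 alternative settings the 4 genes kept the direction of their log2 fold, and 67 of the 68 folds passed the rule of size. The exception was Cubn (7.66) when detection meant being among the 4000 highest genes of a cell. Under that setting, the shares of endoderm-marker cells were 45.5% for Lrp2, 16.4% for Cubn and 14.5% for Amn, and 16.4% of cells had 3 or 4 of the genes. The genes lower in endoderm-marker cells then numbered 1373, with 3 of them on the pathway lists. At 5 TPM the Cubn share was 45.5% and 40% of cells had 3 or 4 genes, and at any value above 0 the Cubn share was 76.4%. In neural-marker cells the shares at any value above 0 were 14.8% for Lrp2, 7.59% for Cubn, 2.07% for Amn and 33.1% for Dab2. With column set 2 alone, 925 genes were higher. With the difference of mean log2(TPM + 1) in place of the fold of means, 2 pathway genes were lower. The cause of these shifts was not tested. Rescaling cells by broadly detected genes moved the median log2 fold of all genes from -0.34 to -0.09, and higher genes were 42.6% of those called, against 37.5% as reported. Over the 17 settings the log2 folds ran from 3.28 to 6.05 for Lrp2, 2.15 to 8.4 for Cubn, 1.11 to 6.33 for Amn and 6.64 to 7.42 for Dab2, with the lowest of Lrp2, Cubn and Amn from the difference of mean log2(TPM + 1). No paired analysis was possible because all cells belong to 1 group. Read depth is unknown, so a gene at 0 in a cell may have been missed.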

Other observations

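The 5 cells that met neither marker rule had between 2059 and 6338 genes above 0. Dab2 was detected in 3 of them, at 4.98, 81.7 and 234.5 TPM, Cubn in 1 at 14.3 TPM, and Lrp2 and Amn in 0. The cell with Cubn was also the one with the highest Dab2 level, and it carried 4 endoderm markers and 0 neural progenitor markers. Over all kept cells, 17 detected all 4 genes, 10 of them endoderm-marker and 7 double-marker cells.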
